A study of Rattus norvegicus with 8 samples.

Results

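Aquaporins are membrane channels for water, and some of them also carry glycerol and other small solutes. The aquaporins of the rat kidney were examined through the 10 genes Aqp1 to Aqp9 and Aqp11, as probes on a one-colour Agilent array whose RefSeq accession belongs to one of these genes. They numbered 12 probes, 3 of them for Aqp4 and 1 for each of the other genes, out of 17514 probes of 14737 named genes and 30367 different probes in all. RNA came from cortical kidney slices of 4 male and 4 female adult rats of the strain RCCHanTMWIST, with 1 rat on each array. The labels name no treatment, no allele and no age beyond adult. A slice holds all cell types of the cortex, so that fewer cells of a type and less RNA per cell cannot be told apart.

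As background, water crosses the cells of the proximal tubule and the thin descending limb through Aqp1, which lies in both the luminal and the basolateral membrane. In the collecting duct, vasopressin acts on the V2 receptor of the principal cell, raises cyclic AMP and brings Aqp2 into the luminal membrane, while Aqp3 and Aqp4 let the water leave on the basolateral side. Aqp6 is an intracellular channel of intercalated cells, Aqp7 is a glycerol channel of the straight proximal tubule and of fat cells, and Aqp11 is an intracellular channel of the proximal tubule. Aqp5 is best known from glands and lung, Aqp8 from the digestive tract and Aqp9 from liver.

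The promoters of the aquaporins of the principal cell are shown first, because the test between the sexes passed for one of these genes, Aqp4, and did not pass for Aqp2 or Aqp3. They are the RefSeq sequences of build GRCr8, which hold 250 bases before and 50 bases after a start site, written 5′ to 3′ on the strand of the gene. Such sequences were at hand for 9 of the 10 genes, all except Aqp7. Aqp4 has 2 start sites, 916 bases apart, and start site 1 is the upstream one (chr18:6798793-6799092 and chr18:6797877-6798176, both on the minus strand). Aqp2 lies on the plus strand (chr7:132590036-132590335), where Aqp5 and Aqp6 are its next neighbours in this order, and Aqp3 lies on the minus strand beside Aqp7 (chr5:61040634-61040933). Capitals mark the motifs named after the sequences.
Aqp4 start site 1: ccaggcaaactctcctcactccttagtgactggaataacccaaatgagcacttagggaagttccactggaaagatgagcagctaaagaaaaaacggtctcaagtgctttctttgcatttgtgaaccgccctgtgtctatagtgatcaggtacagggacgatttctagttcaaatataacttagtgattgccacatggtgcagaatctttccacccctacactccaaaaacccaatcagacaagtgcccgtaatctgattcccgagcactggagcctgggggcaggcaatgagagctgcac
Aqp4 start site 2: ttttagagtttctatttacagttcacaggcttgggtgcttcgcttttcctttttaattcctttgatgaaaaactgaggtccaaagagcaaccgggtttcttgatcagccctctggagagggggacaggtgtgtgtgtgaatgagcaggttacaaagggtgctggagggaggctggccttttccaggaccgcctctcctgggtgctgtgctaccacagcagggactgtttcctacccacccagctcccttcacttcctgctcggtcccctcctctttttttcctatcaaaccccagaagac
Aqp2: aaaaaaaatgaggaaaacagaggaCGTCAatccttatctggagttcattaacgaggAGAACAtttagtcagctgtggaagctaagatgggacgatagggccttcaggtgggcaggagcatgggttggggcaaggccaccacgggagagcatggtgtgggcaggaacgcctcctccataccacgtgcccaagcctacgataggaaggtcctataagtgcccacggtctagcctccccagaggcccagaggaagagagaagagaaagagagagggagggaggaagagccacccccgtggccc
Aqp3: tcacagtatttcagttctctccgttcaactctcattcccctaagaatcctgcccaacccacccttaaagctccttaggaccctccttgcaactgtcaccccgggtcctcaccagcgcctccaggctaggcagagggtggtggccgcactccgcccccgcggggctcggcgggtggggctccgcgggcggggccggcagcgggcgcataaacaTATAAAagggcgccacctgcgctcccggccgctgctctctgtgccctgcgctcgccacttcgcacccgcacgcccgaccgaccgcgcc

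Both strands were searched for 5 motifs, whose matches in these windows do not overlap: TATAAA (the core promoter box of that name, in 14.2% of the 33469 promoters of the table), CGTCA (1 arm of a cyclic AMP response element, 21.2%), TTCNNNGAA (the core that STAT5 and BCL6 sites share, 8.87%), TGTTCT (1 arm of an androgen response element, 20.7%) and AGGTCA (1 arm of an estrogen response element, 16.2%). None of the 5 was present in these letters in either window of Aqp4. Aqp2 held CGTCA at −226 and AGAACA, the reverse complement of TGTTCT, at −194, and Aqp3 held TATAAA at −38, counted from the start site to the first base of the motif. Among the other aquaporins, Aqp1 had TATAAA at −30, Aqp5 had AGGTCA at −20 and Aqp9 had TGTTCT at −31, while Aqp6, Aqp8 and Aqp11 had none. These matches describe the letters of the windows only.

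Each value below is the log2 signal of a probe minus the 75th percentile of its array, so that 0 is the signal exceeded by the brighter spots of the array and a difference of 1 is a doubling. The comparison of the sexes used limma, with Benjamini-Hochberg adjustment across 23425 probes, namely those well above background on 4 arrays or more. The 75th percentile of the signal ranged from 5025 to 5944 in females and from 5685 to 6547 in males. After this scaling the median log2 fold-change of all tested probes, male minus female, was −0.04, and after quantile normalization it was 0.002. Between 73.8% and 79.1% of probes exceeded background clearly, and no spot was saturated. All 8 arrays lay on 1 slide, with 2 rats of each sex in each of its 2 rows. All 12 aquaporin probes were well above background on all 8 arrays, also the dim ones of Aqp5, Aqp6, Aqp8 and Aqp9, so that none entered the test through one sex alone. Over all tested probes, 3.39% were higher in males and 4.67% higher in females at an adjusted p below 0.05, which is 795 and 1094 probes. After quantile normalization these were 1078 and 901 probes. With 4 rats per sex, the number of arrays sets the precision of every value.

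One aquaporin, Aqp4, differed between the sexes. It was 2.28-fold higher in females at its brightest probe and 2.18-fold higher at its dimmest, while its remaining probe and the 9 other genes did not pass the adjusted p. Thus 2 of the 12 probes (16.7%) passed, both higher in females, where 8.06% of all tested probes passed in either direction. Both were also past 2-fold, as were 1.89% of all tested probes, or 1.09% when those higher in females alone are counted. The ranges of the sexes were separate for the same 2 probes, which held for 18.4% of all tested probes. At an unadjusted p below 0.05, 5 of the 12 probes were counted, those of Aqp2, Aqp7 and Aqp8 besides the same 2 of Aqp4, against 25.6% of all tested probes. The median of the absolute log2 fold-change was 0.27 over the 12 probes and 0.15 over all tested probes. These 12 probes count Aqp4 by 3 probes. By the brightest probe of each gene, 1 of 10 (10%) passed and the median was 0.23. Among the 9 genes other than Aqp4, 0 passed and the median was 0.18. By direction irrespective of any test, the brightest probe was higher in males for 7 genes and higher in females for 3 genes, Aqp2, Aqp4 and Aqp6.

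**Figure D1:**
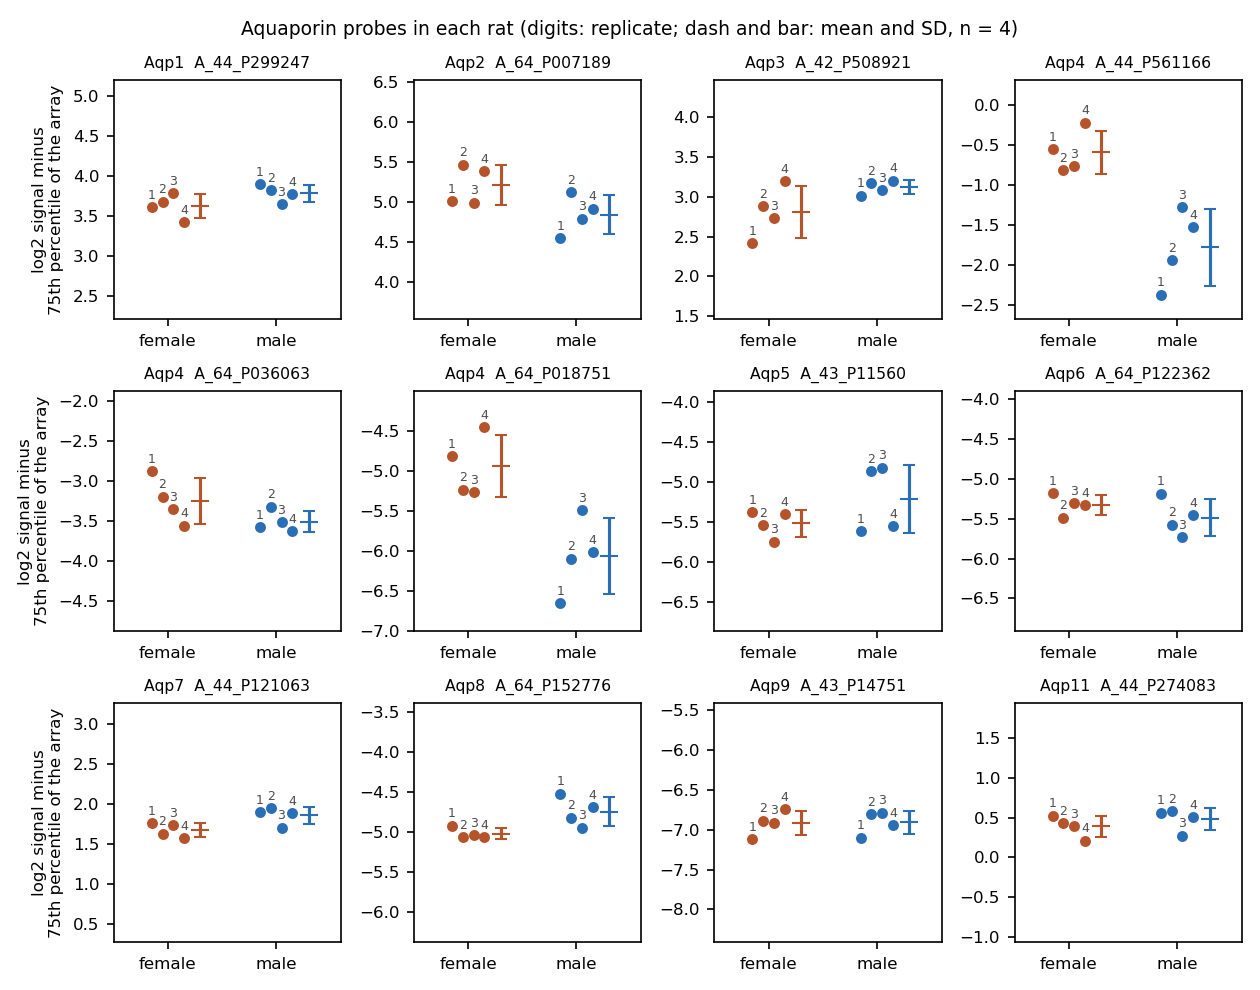
Log2 signal of the 12 aquaporin probes minus the 75th percentile of the array (vertical axis, a span of 3 in every panel) in each female and male rat, with the replicate number beside each point and the mean and SD (n = 4) as dash and bar. Only at the probes A_44_P561166 and A_64_P018751 of Aqp4 do all 4 males lie below all 4 females.

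At the brightest probe of Aqp4 (A_44_P561166, 2 spots per array), the background-subtracted signal was 3833, 2853, 3271 and 5100 in females 1 to 4 and 1263, 1481, 2643 and 2238 in males 1 to 4. The scaled log2 values were −0.56, −0.82, −0.77 and −0.22 in females and −2.37, −1.94, −1.28 and −1.53 in males. Every male lay below every female, and male 1 was the lowest of the 8 rats while female 4 was the highest. Females averaged −0.59 ± 0.27 and males averaged −1.78 ± 0.48 (SD, n = 4 rats each). The log2 fold-change, here and below the male minus the female mean, was −1.19 with a standard error of 0.240 and a 95% interval from −1.74 to −0.64. The adjusted p of limma was 0.0235. The two-sided exact permutation test gave p = 0.0286, the smallest that 4 rats against 4 allow. The size of this difference exceeded that of 98.1% of the tested probes. The spots of the probe differed by at most 0.109 on an array, which is less than the SD between rats in either sex.

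The dimmest probe of Aqp4 (A_64_P018751, 1 spot per array) gave nearly the same picture at a much lower signal, between 64.9 and 272. Its values were −4.81, −5.23, −5.26 and −4.45 in females and −6.66, −6.10, −5.49 and −6.02 in males. Again male 1 was lowest, female 4 was highest and the ranges did not overlap. The adjusted p of limma was 0.0396, at a log2 fold-change of −1.13 with a standard error of 0.266. At the remaining probe of Aqp4 (A_64_P036063, 2 spots per array), with signals between 505 and 770, females had −2.87, −3.19, −3.35 and −3.56 and males −3.57, −3.32, −3.51 and −3.62. Here the sexes overlapped, female 1 was highest, and female 4, the highest rat at the other probes, lay among the males. The log2 fold-change was −0.26 (95% interval −0.60 to 0.07, adjusted p = 0.296 from limma). The 3 probes carry the same accession, and the place in the transcripts where each of them binds was not analysed here.

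The disagreement between the probes of Aqp4 was examined through their difference within each array, which does not depend on the scaling between arrays. This and the other differences within arrays, 11 in all, were chosen after the values were seen and are given without a test. The brightest minus the dimmest probe was 4.35 ± 0.13 in females and 4.29 ± 0.15 in males (SD, n = 4 each), and the difference of these means, −0.06, was smaller than the SD of either sex. The brightest minus the remaining probe was 2.65 ± 0.47 in females and 1.73 ± 0.52 in males (SD, n = 4 each), and here the ranges were separate.

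**Figure D2:**
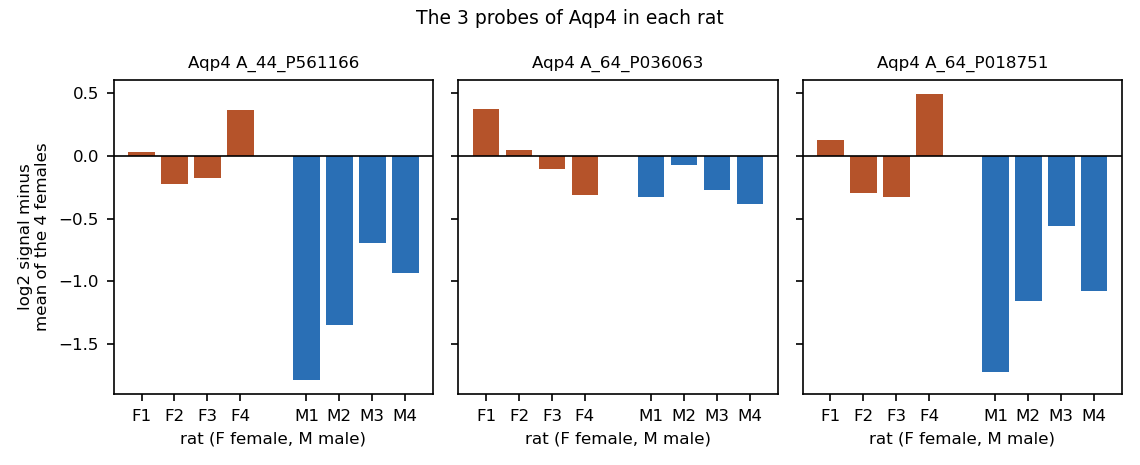
Log2 signal of the 3 probes of Aqp4 in each rat, relative to the mean of the 4 females (bars from 0; F1 to F4 females, M1 to M4 males). At A_44_P561166 and A_64_P018751 the 4 males lie clearly below the female mean with male 1 lowest, and at A_64_P036063 females and males overlap.

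The adjusted p of the brightest probe of Aqp4 rose above 0.05 without female replicate 1 (0.0572, log2 fold-change −1.18) and without male replicate 2 (0.0666, log2 fold-change −1.14), and without male replicate 1 the log2 fold-change fell to −0.99. The dimmest probe missed the adjusted p in 12 of 19 alternative settings, among them quantile normalization (adjusted p = 0.0624), and with 1 rat left out it passed without male replicate 3 alone. Within the rows of the slide, the log2 fold-change of the brightest probe was −1.46 in row 1 and −0.92 in row 2, with 2 rats of each sex in each.

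Aqp2, the vasopressin-regulated channel of the luminal membrane, had values of 5.01, 5.47, 4.99 and 5.39 in females and 4.54, 5.12, 4.79 and 4.91 in males at its probe A_64_P007189. Males 1, 3 and 4 lay below every female, with male 1 lowest, and male 2 lay within the female range. The log2 fold-change was −0.37 (95% interval −0.73 to −0.01, standard error 0.157), with an unadjusted p of 0.0443 and an adjusted p of 0.183 in limma (exact permutation test, p = 0.114). Aqp3, the basolateral glycerol and water channel, leaned the other way at A_42_P508921 (10 spots per array). Its values were 2.42, 2.88, 2.73 and 3.19 in females and 3.01, 3.17, 3.08 and 3.20 in males. The males lay close together, and female 4 alone of the females reached their level. The log2 fold-change of Aqp3 was 0.31 (95% interval −0.04 to 0.66, adjusted p = 0.243 from limma), and the exact permutation test gave p = 0.114.

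The channels of the principal cell were also set against each other within each array, with the brightest probe of Aqp4. Such a difference between probes carries no relative level of the genes, since probes differ in brightness, but its mean can be set beside that of the other sex. Aqp4 minus Aqp3 was −3.40 ± 0.31 in females and −4.90 ± 0.45 in males (SD, n = 4 each), so that the ratio of Aqp4 to Aqp3 was 2.83-fold higher in females, with separate ranges. Aqp4 minus Aqp2 was −5.80 ± 0.33 in females and −6.62 ± 0.45 in males (SD, n = 4 each), and these ranges overlapped. Aqp3 minus Aqp2 was −2.41 ± 0.21 in females and −1.73 ± 0.17 in males (SD, n = 4 each), again with separate ranges. These values carry the differences of the single genes given above.

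**Figure D3:**
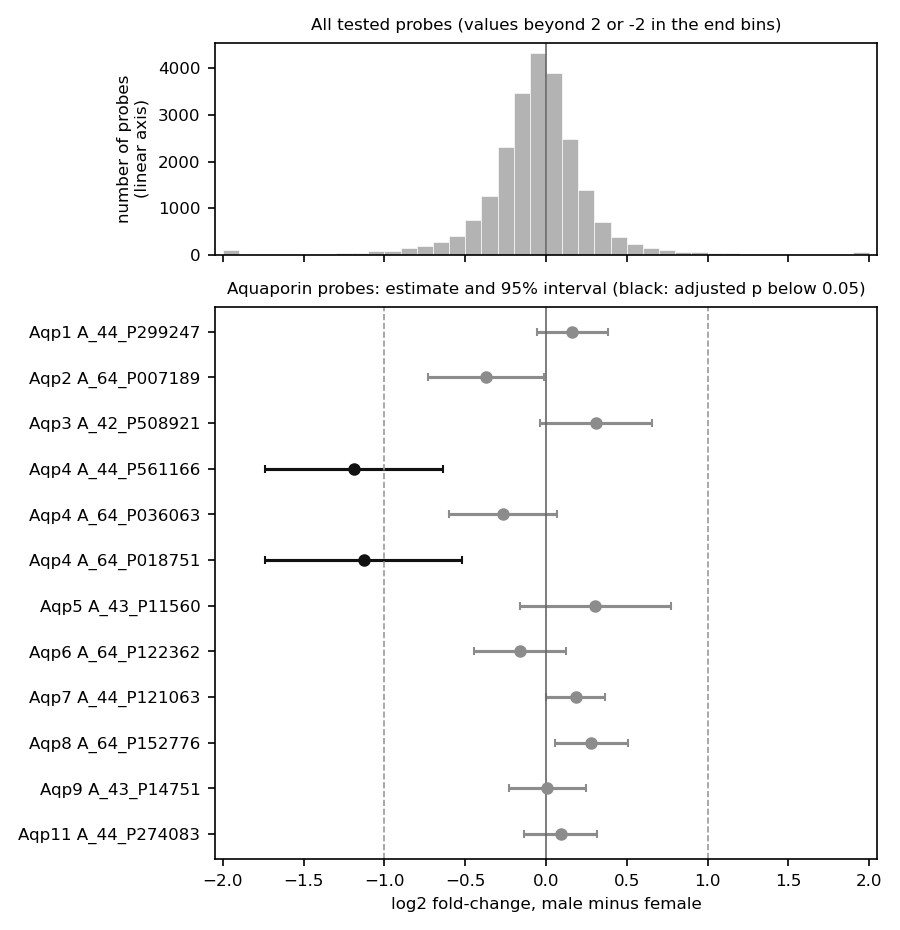
Top, number of all 23425 tested probes by log2 fold-change (male minus female, bins of 0.1, values beyond 2 or −2 in the end bins). Bottom, log2 fold-change of the 12 aquaporin probes with the 95% interval of limma, and 2-fold marked by dashed lines. The probes of Aqp4 at −1.19 and −1.13 lie in the tail of the distribution, and the other 10 probes lie between −0.37 and 0.31.

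Aqp4 was next compared with other genes of the cells and of the pathway it belongs to. Of 17 marker genes of the principal cell, 14 were tested, and 1 of them, Rhcg, passed the adjusted p (−0.44, adjusted p = 0.0296). This share of 7.14% lay below the 8.06% of all tested probes. Rhcg, an ammonia transporter that intercalated cells express as well, was lower in males. It lost the adjusted p without female replicate 2 or 4, without any of males 1 to 4 and without the filter on dim probes, and with an intensity trend and a robust prior 3 genes of the list passed. Avpr2, the V2 receptor of vasopressin, had −0.32 (adjusted p = 0.170). Sgk1 (0.68, adjusted p = 0.299), Elf5 (0.19) and Kcne1 (0.05), named in addition after their values were seen, were higher in males and did not pass. The rest of the 14 tested genes were lower in males. The median over the list was −0.20, against −0.04 over all tested probes. The summed signal of the list, relative to the 75th percentile, ranged from 47.3 to 54.7 in females and from 42.6 to 46.0 in males. Such a sum, here and below, adds unlogged values, so that the brightest genes weigh most. The brightest of this list, named in addition for that reason, was Hsd11b2 (−0.24, adjusted p = 0.0551). Its mean log2 value was 4.91 in females and 4.67 in males. All 14 markers were above background. Relative to the mean of these 14 genes in the same array, Aqp4 was −0.68 ± 0.19 in females and −1.75 ± 0.40 in males (SD, n = 4 each). The difference was −1.07, and the ranges were separate. Measured in this way, Aqp3 had a difference of 0.43 with separate ranges, and Aqp2 had −0.25 with overlapping ranges.

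**Figure D4:**
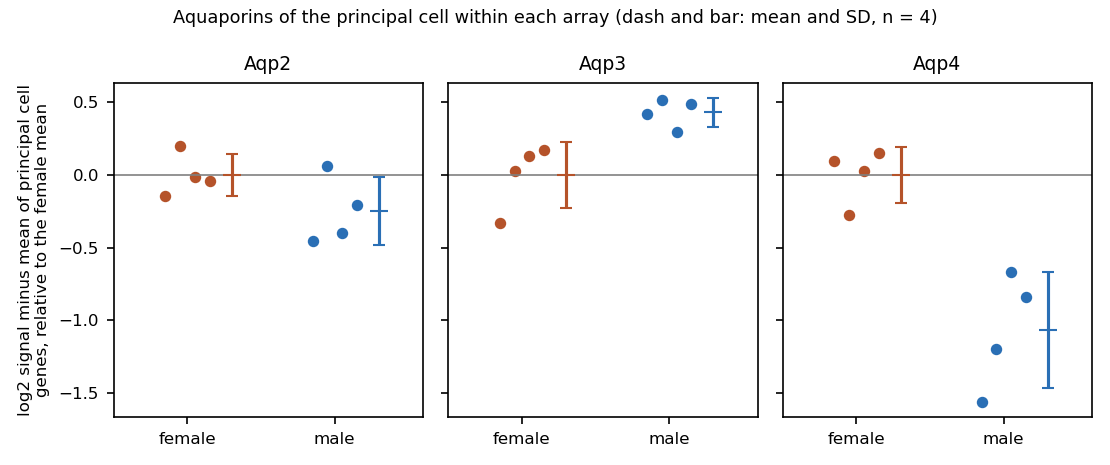
Log2 signal of Aqp2, Aqp3 and Aqp4 minus the mean of 14 principal cell genes of the same array, shown relative to the female mean, for each rat (points) with mean and SD (n = 4). Males lie below all females for Aqp4, above all females for Aqp3, and overlap the females for Aqp2.

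A list of 40 genes that control water permeability (receptors, adenylyl cyclases, protein kinase A, trafficking proteins and urea transporters) had 33 tested genes. Of these, Rab7a, a small GTPase of late endosomes, was higher in males (0.39, adjusted p = 0.00998), and Prkar2b, a regulatory subunit of protein kinase A, was lower in males (−0.57, adjusted p = 0.0375). These 2 genes make up 6.06% of the list, below the 8.06% of all tested probes, and neither reached 2-fold. The count was 1 gene without any of females 1 to 3 or males 1 to 4 and without the filter on dim probes. The median was −0.05. The urea transporter genes Slc14a1 and Slc14a2 were well above background on no array, as was the urothelial gene Upk2 of the list for thin limb and inner medulla. Of 9 tested genes of the latter list none passed the adjusted p of limma, and 2 had an unadjusted p below 0.05. With normexp background correction, with an intensity trend or without female replicate 3, 1 gene passed.

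Among markers of other distal cell types, all those that passed were lower in males. Of 15 tested markers of intercalated cells, 4 passed the adjusted p (26.7%), all lower in males, among them Atp6v1c2 (−0.47, adjusted p = 0.0252), Rhcg and Car15 (−0.90, adjusted p = 0.0304), and Atp6v1b1, a subunit of the proton pump, had −0.21 (adjusted p = 0.116). The summed signal of the list was 43.0 to 55.9 in females and 36.9 to 38.8 in males. With 1 rat left out the count was between 0 and 4 genes, with 0 without female replicate 4 or male replicate 1, 1 without female replicate 2 or males 2 to 4, and 2 without female replicate 1. Without the filter on dim probes it was 1. Of 12 tested genes of the thick ascending limb and distal tubule, 4 passed (33.3%), all lower in males. They included Bsnd, a subunit of chloride channels (−0.43, adjusted p = 0.00452), Cldn16, a tight junction protein (−0.62, adjusted p = 0.0287), and Egf (−0.38, adjusted p = 0.0301). The list counted 2 genes in place of 4 with quantile normalization, with or without normexp, and with the log2 values of the authors, 1 without the filter on dim probes, and 1 (females 2 and 3, male 2) or 2 genes (the other rats) when a single rat was left out. Its summed signal was 178.04 to 192 in females and 151.3 to 159 in males, and Pvalb was not above background on any array. The median of this list was −0.29. Ptger3 (0.40), Slc12a3 (0.18) and Trpv5 (0.09), named in addition after their values were seen, were higher in males and did not pass. Slc12a1, the first gene of the list, had no probe. Beside the shares of both lists, 8.06% of all tested probes passed, and 4.67% passed and were higher in females. The part of these cell types in the difference of Aqp4 was not tested.

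Aqp6, the channel of intercalated cells, was measured by A_64_P122362 at a low signal of 112 to 180. Its values were −5.18, −5.49, −5.31 and −5.33 in females and −5.18, −5.57, −5.73 and −5.45 in males, so that male 1 lay just below female 1, the highest rat, and the ranges overlapped. The log2 fold-change was −0.16 (95% interval −0.44 to 0.13, adjusted p = 0.470 from limma). The markers of the intercalated cell given above were lower in males by a median of −0.32, and their part in the value of Aqp6 was not tested.

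The channels of the proximal tubule did not pass the adjusted p. Aqp1 (A_44_P299247, 10 spots per array) had values of 3.61, 3.68, 3.78 and 3.42 in females and 3.90, 3.83, 3.64 and 3.77 in males. The highest 2 rats were males 1 and 2, and males 3 and 4 lay within the female range. The log2 fold-change was 0.16 (95% interval −0.06 to 0.38, adjusted p = 0.333 from limma), so that the interval ended well short of 2-fold. Aqp11 (A_44_P274083) had 0.52, 0.43, 0.39 and 0.21 in females and 0.56, 0.58, 0.27 and 0.51 in males, a log2 fold-change of 0.09 (95% interval −0.13 to 0.32, adjusted p = 0.611). For both genes the values of the sexes overlapped.

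Aqp7, the glycerol channel (A_44_P121063), had values of 1.76, 1.63, 1.74 and 1.57 in females and 1.89, 1.94, 1.70 and 1.88 in males. Males 1, 2 and 4 lay above every female, and male 3 lay below the highest 2 females. The log2 fold-change was 0.18 (95% interval 0.0005 to 0.37, standard error 0.080), with an unadjusted p of 0.0495 and an adjusted p of 0.195 in limma (exact permutation test, p = 0.0857). Relative to Aqp1 in the same array, Aqp7 had a difference between the sexes of 0.02 and Aqp11 one of −0.07, with overlapping ranges.

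Markers of the cells that hold these channels passed in both directions. Of 14 tested genes of proximal tubule segments 1 and 2, Slc34a3, a phosphate transporter, was higher in males (0.29, adjusted p = 0.0481) and Cubn, an endocytic receptor, was lower (−0.59, adjusted p = 0.00452), while Slc5a2, the glucose transporter of the early segments, had −0.13 (adjusted p = 0.225). These 2 genes make up 14.3% of the list. The median of that list was 0.12. Beside the share of each list in this paragraph, 8.06% of all tested probes passed. Of 12 tested genes of segment 3, Slc22a13, Slc22a7 and Slc7a12 were lower in males (−3.45, −5.12 and −4.57, adjusted p between 0.000208 and 0.000531), and Agt, named in addition after its values were seen, was higher (3.12, adjusted p = 0.00101), together 33.3% of the list. Slc5a1, the first marker of segment 3, had −0.42 (adjusted p = 0.246). The segment 1 and 2 list had 1 called gene in place of 2 without any of females 1 to 4 or males 1, 2 and 4, without the filter on dim probes and with the slide row as a block. None of the 11 tested endothelial genes passed the adjusted p of limma, 1 had an unadjusted p below 0.05, and Pecam1 had −0.11 (adjusted p = 0.459). Of 10 tested genes of fat cells, Lpl alone passed (10% of the list, −0.79, adjusted p = 0.0184), and Adipoq had −0.41 (adjusted p = 0.277). The median of the fat cell list was −0.35. Lipe (0.22), Cidec (0.18) and Pnpla2 (0.04), named in addition after their values were seen, were higher in males and did not pass. The other genes of the list were lower in males. Lpl lost the call without female replicate 2 or 3 or male replicate 3, and with the replicate block. Fabp4, named in addition after its values were seen, varied widely between rats of the same sex. It had −3.18, −5.03, −8.13 and −8.15 in females and −8.90, −6.37, −9.55 and −5.75 in males. The summed signal of the fat cell genes was 1.80 to 2.85 in females and 1.49 to 1.88 in males, and Lpl and Pnpla2 were the brightest genes in it. The part of fat cells in the value of Aqp7 was not tested.

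Glycerol that enters through Aqp3, Aqp7 or Aqp9 is phosphorylated by glycerol kinase (Gk), which had −0.21 (adjusted p = 0.415). Of 15 tested genes of glycerol metabolism, 3 passed the adjusted p (20%, against 8.06% of all tested probes), all lower in males. These were Gpd2, the mitochondrial glycerol phosphate dehydrogenase (−0.89, adjusted p = 0.0180), Lpl, which releases fatty acids from circulating triglycerides (−0.79), and Agpat2, an enzyme of phosphatidic acid synthesis (−0.37, adjusted p = 0.0346). Other genes were higher in males with separate ranges but did not pass. Among them, named in addition after their values were seen, were Pck1 (0.52, adjusted p = 0.0511), Angptl4 (1.53, adjusted p = 0.0816) and Dgat2 (0.49, adjusted p = 0.110). The count of genes that passed fell to 0 without female replicate 2. It was 1 without female replicate 3 or male replicate 2, and with the replicate block. It rose to 4 with normexp (with or without quantile normalization), with probes required on 8 arrays, with an intensity trend and with array weights. The median of the list was 0.04. Over the 11 lists together, 143 different genes were tested and 20 of them (14.0%) passed the adjusted p, 17 lower and 3 higher in males, beside the 8.06% of all tested probes (4.67% and 3.39%).

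**Figure D5:**
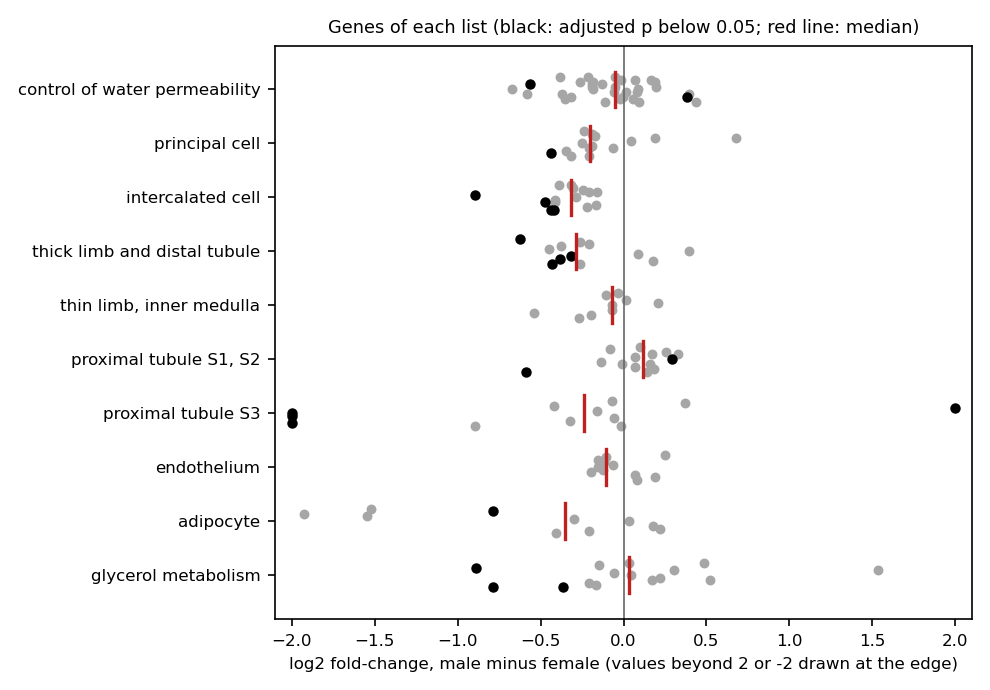
Log2 fold-change (male minus female, horizontal axis, values beyond 2 or −2 drawn at the edge) of the genes of 10 lists, 1 point per gene at its brightest probe, with the median as a red line and genes past the adjusted p in black. The medians lie between −0.35 and 0.12, and the genes past the adjusted p in the lists of intercalated cells and of thick limb and distal tubule all lie below 0.

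The channels that are best known from other organs were measured at low signals. Aqp8 (A_64_P152776, signals of 150.1 to 286) had values of −4.92, −5.07, −5.04 and −5.06 in females and −4.52, −4.82, −4.94 and −4.69 in males. Males 1, 2 and 4 lay above every female, and male 3 lay below female 1. Its log2 fold-change was 0.28 (95% interval 0.05 to 0.51, standard error 0.099), with an unadjusted p of 0.0216 and an adjusted p of 0.123 in limma (exact permutation test, p = 0.0571). Aqp5 (A_43_P11560, signals of 104 to 229) had −5.38, −5.54, −5.75 and −5.40 in females and −5.62, −4.86, −4.82 and −5.55 in males. Males 2 and 3, which share a row of the slide, stood above all females, and males 1 and 4, from the other row, lay within the female range. The log2 fold-change of Aqp5 was 0.31 (95% interval −0.16 to 0.77, adjusted p = 0.393), and within the rows it was −0.01 in row 1 and 0.62 in row 2. Aqp9 (A_43_P14751) had signals of only 40.5 to 58.5, where the lowest signal counted as well above background was 14.1 to 23.2, depending on the array. Its log2 fold-change was 0.01 (95% interval −0.23 to 0.25, adjusted p = 0.974), and its sign changed with the setting.

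Under every other setting tried, the log2 fold-change of Aqp1, Aqp3, Aqp5, Aqp7, Aqp8 and Aqp11 stayed above 0 and that of Aqp2, Aqp6 and the 3 probes of Aqp4 below 0, Aqp9 being the exception, and none of the 9 genes other than Aqp4 passed the adjusted p in any setting. Among 11120 named genes well above background on all arrays, those whose deviations from the mean of their sex were most like those of Aqp4 over the 8 arrays were Acsl5 (Pearson correlation 0.962), Pfkfb2 (0.950) and Siah1 (0.949), which is a description without a test. None of them passed the adjusted p between the sexes (0.0745, 0.496 and 0.148). Of the family members outside the 10 genes, Mip had a probe well above background on all arrays and had 0.28 (adjusted p = 0.284), and the probe of Aqp12a was well above background on none.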

How the data were processed

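The authors deposited, for each rat, the signal intensity of 62976 spots (58717 without controls) from Agilent Feature Extraction 10.7.3.1, background-subtracted and detrended within the array, with no normalization between arrays per the file headers. They also deposited log2 values, quantile normalized as far as their shared distribution shows, which ranked the spots as the signals did. The submitters' processing notes name limma 3.8.2. Cy3-labelled RNA of the cortical slices of 1 rat was hybridized to SurePrint G3 arrays.

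After removal of outlier spots, signals were put on the log2 scale relative to the 75th percentile of an array's non-control spots, and replicate spots were averaged. Groups and replicate numbers came from the sample titles. Each probe was fitted with limma 3.58.1 (lmFit, eBayes) in R 4.3.3 as male minus female without covariates. Gene names came from the accession of the probe through RefSeq (GRCr8). For single values, all 70 assignments of rats to sexes gave an exact permutation p, two-sided. The fit was tested on simulated data. The rats of a sex also differ in array and slide position, so that p measures the spread of all these together. Figures were drawn with matplotlib 3.10.9.

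The members, lists and thresholds were chosen with earlier results of these data known. The lists were compared by 1 probe per gene, the brightest. The result of 1 list is not reported here. Of each list, the text names the first gene and up to 3 genes of lowest adjusted p past 0.05. It also names all probes of the members and the 3 genes most like a member that passed. Exceptions are noted where they occur. Alternatives were quantile normalization, the authors' log2 values, normexp (offset 50) on the median spot signal with and without quantile normalization, dim probes unfiltered or required on 8 arrays, outlier spots kept, array weights, a robust prior with an intensity trend, blocks for replicate number or slide row, each array left out, and the mean of a gene's probes. The comparisons within arrays and within slide rows were added after the data were seen.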

Additional observations from a re-analysis of the deposited data

Results flagged for a closer look

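Each group of 4 rats was examined for a rat far from the other 3, by Dixon's criterion at the 95% level. Of 24 groups, 1 had such a rat, and chance gives about 1 in 20, or 1.2 of 24. Aqp8 (A_64_P152776) was −4.92 in female replicate 1, and the other females lay between −5.07 and −5.04. The reason was not tested.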

How the results depend on the processing

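Of 229 repeated log2 fold-changes of the 12 probes, 210 kept their direction and their side of the adjusted p, 14 lost the call, all at Aqp4 (2 at the brightest probe and 12 at the dimmest), and 5 changed sign, all at Aqp9. Aqp9 had −0.11 with normexp and the 75th percentile, −0.014 with array weights, and −0.060 to 0.071 with each rat left out. The number of aquaporin probes past the adjusted p, all higher in females, was 1 in place of 2 with quantile normalization, with the log2 values of the authors, without a filter on dim probes, and with the slide row or the replicate block. In all of these, and with normexp (alone or with quantile normalization), 1 probe also passed 2-fold, the brightest of Aqp4. With the mean of the 3 probes in place of the brightest, 1 probe passed 2-fold, the dimmest. The log2 fold-change of the brightest probe lay between −1.36 and −0.86 over 20 settings, with an adjusted p from 0.0128 to 0.0666. With each rat left out it lay between −1.36 and −0.99, and 0 to 2 aquaporin probes passed, with or without the 2-fold threshold and all higher in females, 0 of them without female replicate 1 or male replicate 2 (and, past 2-fold, male replicate 1). The cause of lost calls was not tested. Of the 20 genes of the lists that passed, the count was 12 without a filter, 13 with the replicate block and 9 to 14 with a rat left out. Over all probes, 1889 passed, against 1194 without a filter, 1030 with the replicate block and 1012 to 1544 with a rat left out.

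Whether the replicate numbers pair the rats is not settled by these values. Deviations of same-numbered rats from the mean of their sex correlated by 0.125, 0.0427, −0.00794 and 0.117 over 23400 probes. Of the 4 females, 2 correlated best with the male of their own number. With the replicate block, no gene of the principal cell or fat cell list passed, 1 passed of glycerol metabolism and of proximal tubule segments 1 and 2, and 2 of intercalated cells and of thick limb and distal tubule. The adjusted p was then 0.0487 at the brightest probe of Aqp4 and 0.0923 at the dimmest. At the dimmest probe of Aqp4 the log2 fold-change was −0.79 and −0.69 under normexp without and with quantile normalization, against −1.13, and the cause was not tested.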
